A study of Homo sapiens with 8 samples.

Results

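Expression of 9 ligands of the CXC chemokine family and of the receptor CXCR4 was followed across 4 lines labelled as ZR-75-1 cells, a human luminal breast cancer line that expresses the estrogen receptor. The 10 genes, CXCL1, CXCL2, CXCL3, CXCL5, CXCL6, CXCL8 (the IL8 gene), CXCL10, CXCL11, CXCL16 and CXCR4, were taken by symbol from the gene annotation of the array, each by its brightest transcript cluster, the set of probes that reads 1 locus. They are 10 of 18417 genes measured in this way. Total RNA was hybridized to 2 arrays for each line, 8 in all. The lines were ZR-75-1 cells with stable shRNA against EI24 (ZR-shEI24 cells), present as clone 1 and clone 2, control ZR-75-1 cells that express an shRNA against GFP (shGFP), and parental ZR-75-1 cells that carry no shRNA. The sample labels name no chemical treatment. Each ZR-shEI24 line is 1 clone, so a difference between a clone and its controls can also belong to that clone, and the first number of the sample label was read as the clone. Values are log2 intensities after RMA, a procedure that subtracts background, brings all arrays to nearly 1 distribution and summarizes the probes of a cluster. No source used here tells whether both arrays of a line were separate cultures, and the p-values below therefore cover array-to-array spread only, possibly a technical one.

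CXC chemokines are small secreted proteins that direct the movement of cells by binding receptors coupled to heterotrimeric G proteins. Ligands with a Glu-Leu-Arg motif ahead of the first cysteines (CXCL1, CXCL2, CXCL3, CXCL5, CXCL6 and CXCL8) bind CXCR2, some of them also CXCR1, and attract neutrophils and promote the growth of vessels. CXCL10 and CXCL11 lack the motif, are induced by interferons and bind CXCR3 of activated T cells, whereas CXCL16 is made as a membrane protein with a chemokine domain and binds CXCR6. CXCR4 binds CXCL12 and is known in breast cancer for its part in homing to organs that make that ligand. Transcription of many of these ligands is induced by NF-κB after stimulation with interleukin-1 or tumor necrosis factor.

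Most of the ligands gave more signal in ZR-shEI24 cells than in the shGFP control. With an adjusted p under 0.05 from limma, which fits all genes together, 9 of the 10 genes rose and 1 fell when the mean of both clones was set against shGFP. In bulk RNA, a change in the number of expressing cells and in the RNA of each cell cannot be told apart. The background of this comparison was wide, with 26.8% of all genes called higher and 29.0% called lower. The sizes of the changes differed, and they are means of both clones. CXCL1, CXCL8, CXCL10 and CXCL11 rose by log2 differences of 4.38 to 4.51, CXCL2 by 2.90 and CXCR4 by 1.76, while CXCL3 rose by 0.93 and CXCL5 and CXCL6 by 0.33 each. The order was not the same in each clone. CXCL2 had 4.08 in clone 1 and 1.72 in clone 2, where it was below CXCR4 with 2.14. CXCL2, CXCL3, CXCL6, CXCL10, CXCL11 and CXCR4 were in the dimmest 25% of genes in shGFP cells, which limits the size of their differences. CXCL16 was the gene that fell, with a log2 difference of -1.30. The median log2 difference was 2.33 over the 10 genes and 0.08 over all genes. All 4 ZR-shEI24 arrays lay above all 4 control arrays for 8 of the genes, and below them for 1, where 23.8% of all genes lay above and 26.9% below.

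**Figure D1:**
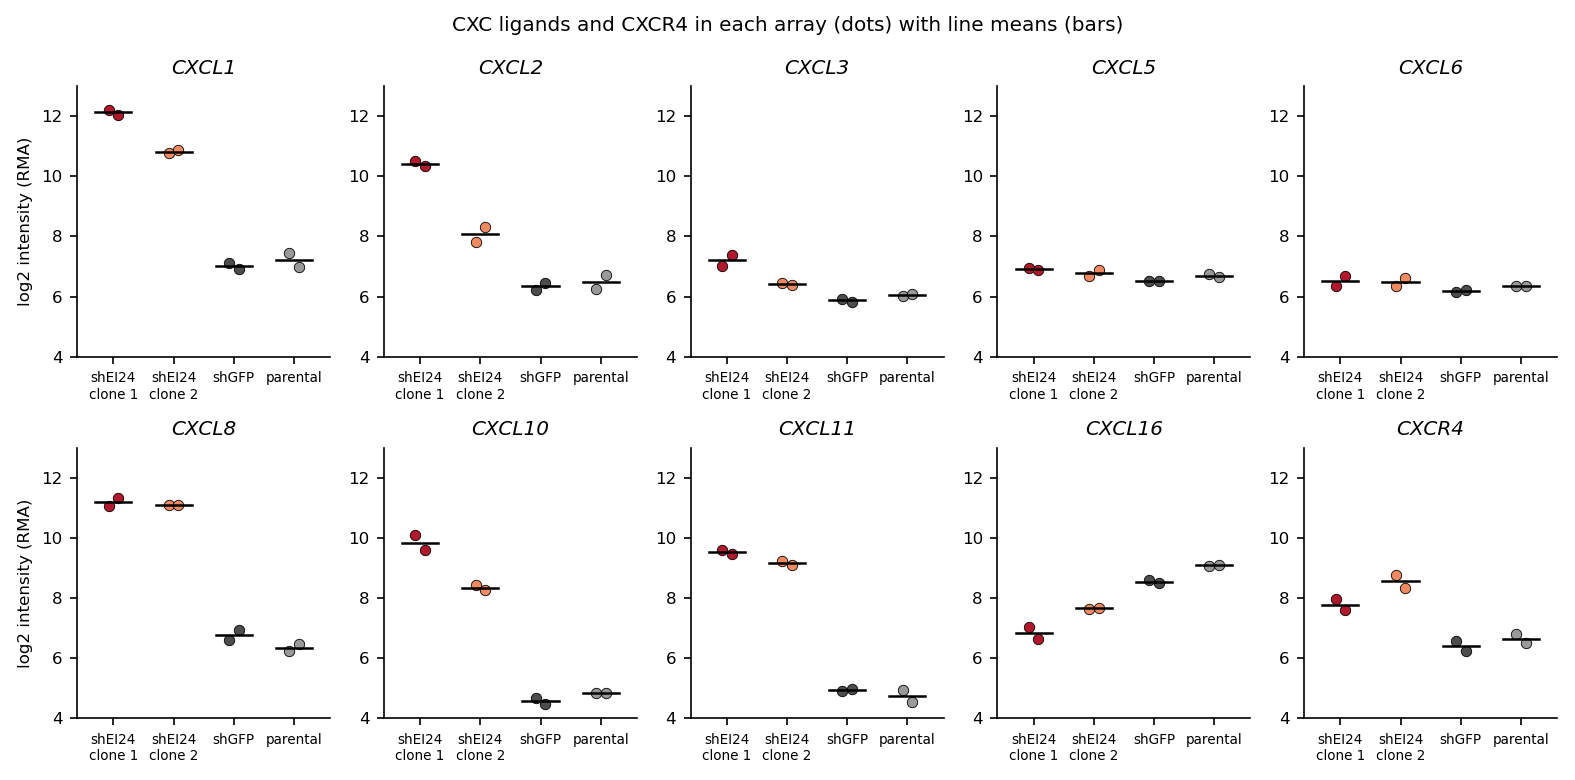
Log2 intensity (y axis, RMA values) of the 9 CXC ligands and CXCR4 in each array of shEI24 clone 1, shEI24 clone 2, shGFP and parental cells (x axis). Dots are arrays, 2 for each line, and bars are line means. CXCL1, CXCL8, CXCL10 and CXCL11 stand far above both control lines in both clones, and CXCL16 lies below the controls. CXCL5 and CXCL6 differ by 0.33 each from shGFP on the log2 scale, and by 0.16 and 0.15 from parental cells.

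EI24, the targeted gene, encodes a protein of the endoplasmic reticulum, and its level checked the labels. Its log2 intensity was 8.64 and 8.43 in clone 1, 9.25 and 9.19 in clone 2, 11.97 and 11.91 in shGFP cells, and 12.08 and 12.09 in parental cells. Both clones were low and did not overlap the controls. The log2 difference of ZR-shEI24 from shGFP cells was -3.06 (limma, standard error 0.083, adjusted p = 8.6e-09). Markers of luminal breast epithelium checked the cell type. The marker counts here stand beside 26.8% of all genes called higher and 29.0% called lower. All 10 measured markers (ESR1, GATA3, FOXA1, KRT8, KRT18, KRT19, CDH1, EPCAM, TFF1 and XBP1) fell in ZR-shEI24 cells against shGFP cells, with a median log2 difference of -3.16. ESR1, the estrogen receptor gene, was at 5.92 and 6.11 in clone 1 and 6.04 and 5.81 in clone 2, against 10.75 and 10.78 in shGFP cells and 10.70 and 10.59 in parental cells. The luminal markers thus separated the same arrays as the chemokines did, and their part in the chemokine differences was not tested. Whether the clones carry the genotype of ZR-75-1 was not tested either, and each difference below is one between lines as labelled. Summed over the 10 markers, the linear intensity was 10274.8 to 16257.9 in ZR-shEI24 arrays and 54779.7 to 59151.1 in control arrays. Among 7 leukocyte markers, 2 rose, CD14 by 0.89 and PTPRC by 0.21, and 5 did not pass, and the summed intensity was 551.4 to 639.5 in ZR-shEI24 arrays and 430.2 to 499.2 in control arrays. PTPRC, the pan-leukocyte gene, lay at log2 values of 4.37 to 4.54 in ZR-shEI24 arrays and 4.20 to 4.33 in control arrays, near the dim end in all 8. Of 6 fibroblast markers 1 rose (PDGFRA, by 0.28), with summed intensities of 657.9 to 751.6 in ZR-shEI24 arrays and 629.9 to 709.0 in control arrays. Of 5 endothelial markers 2 rose (KDR, by 1.82, and PECAM1, by 0.52), with 470.0 to 526.7 in ZR-shEI24 arrays and 295.6 to 335.5 in control arrays. The 2 arrays of each line correlated with r of 0.994 to 0.998 over all genes.

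A κB motif close to the start site was shared by 8 of the ligands. Promoter sequences, from 250 bases before to 50 bases after each start, were taken from RefSeq (GRCh38.p14) and held an entry for 9 of the 10 genes. The letters GGAATTTCC, a form of the site that NF-κB dimers bind, were found on either strand in 8 of these, which are the 6 ligands with the Glu-Leu-Arg motif together with CXCL10 and CXCL11. Among all 35116 promoters of this length, 162 held these letters, or 0.461%. The 80 bases around each match are printed because they show which ligands are near copies of one another in this window and which only share the motif. They are read 5′ to 3′ on the strand of the gene, and capitals mark the match, which reads GGAATTTCC in CXCL1 to CXCL8 and GGAAATTCC, its reverse complement, in CXCL10 and CXCL11.
CXCL1: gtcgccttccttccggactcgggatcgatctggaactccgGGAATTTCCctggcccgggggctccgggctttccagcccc
CXCL2: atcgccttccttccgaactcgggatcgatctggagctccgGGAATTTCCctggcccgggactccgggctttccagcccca
CXCL3: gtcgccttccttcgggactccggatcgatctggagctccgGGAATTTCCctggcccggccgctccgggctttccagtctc
CXCL5: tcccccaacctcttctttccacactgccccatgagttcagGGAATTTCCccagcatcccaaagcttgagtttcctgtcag
CXCL6: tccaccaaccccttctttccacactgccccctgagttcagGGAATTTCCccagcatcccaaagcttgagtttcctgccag
CXCL8: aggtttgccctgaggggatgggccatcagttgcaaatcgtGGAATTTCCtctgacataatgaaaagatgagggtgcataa
CXCL10: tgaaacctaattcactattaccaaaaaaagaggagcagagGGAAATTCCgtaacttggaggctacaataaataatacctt
CXCL11: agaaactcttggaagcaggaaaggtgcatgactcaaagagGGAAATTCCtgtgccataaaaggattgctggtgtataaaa

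On the plus strand the windows lie at chr4:73740438-73740517 for CXCL8, chr4:73836549-73836628 for CXCL6 and chr4:73869275-73869354 for CXCL1. On the minus strand they lie at chr4:73998728-73998807 for CXCL5, chr4:74038728-74038807 for CXCL3, chr4:74099233-74099312 for CXCL2, chr4:76023634-76023713 for CXCL10 and chr4:76036106-76036185 for CXCL11. All 8 end before the RefSeq start site of the gene. The first base of the match was 78 bases before the start in CXCL1, 77 in CXCL2, 78 in CXCL3, 90 in CXCL5, 89 in CXCL6, 91 in CXCL8, 176 in CXCL10 and 75 in CXCL11. Aligned on the motif and compared base by base without gaps, the windows of CXCL1 and CXCL3 were identical at 73 of 80 bases (91.2%). Those of CXCL1 and CXCL2 were identical at 65 (81.2%), and those of CXCL5 and CXCL6 at 76 (95%). A base missing from a window puts all later bases out of step, as after the motif in CXCL2. These counts therefore do not rank the near copies. The window of CXCL8 matched that of CXCL1 at 28 bases (35%), and the windows of CXCL10 and CXCL11 also matched each other at 28.

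The other motifs searched, each on both strands, were less shared. The looser κB form GGGNNNTTC, which overlaps the exact match in all of these promoters but that of CXCL8, occurred in 15.5% of all promoters. The form GGGATTTCC was in 0.393% of all promoters and in 0 of the 9 genes with an entry. The interferon response motif GAAANNGAA was found in CXCL2, CXCL3 and CXCL10 and in 8.11% of all promoters. In CXCL2 and CXCL3 it overlaps a loose κB match. The AP-1 motif TGANTCA was found in CXCL8, 137 bases before the start, in CXCL11, 87 bases before it, and in 7.71% of all promoters. The 3 promoter entries of CXCR4 held none of the motifs. A match only says that the letters are in the window.

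**Figure D2:**
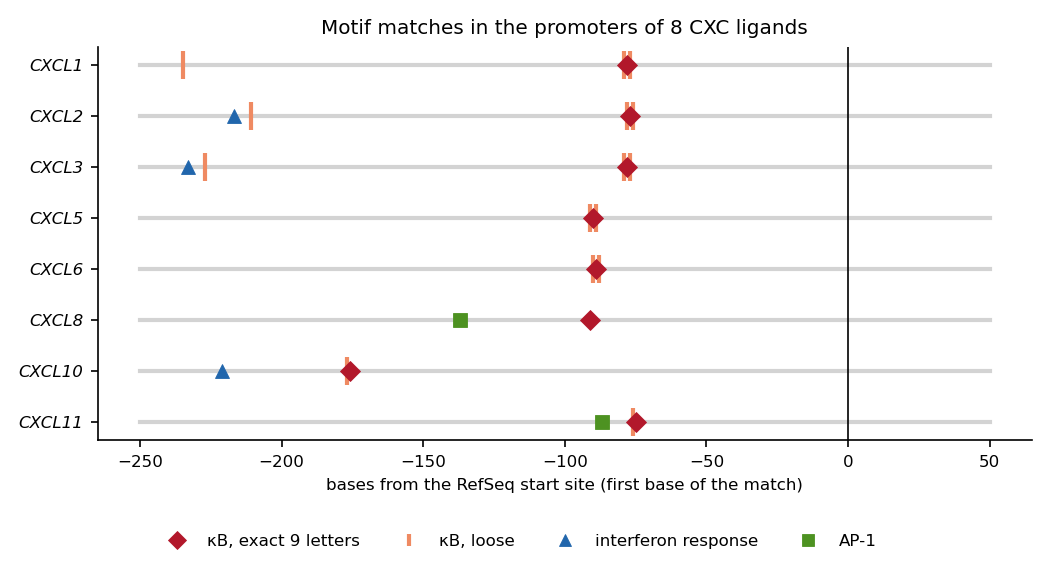
Positions of motif matches in the RefSeq promoters of 8 CXC ligands (rows), in bases from the start site at 0 (x axis, first base of the match). Diamonds are the exact κB letters, vertical ticks the loose κB form, triangles the interferon response motif and squares the AP-1 motif. The exact κB match lies 75 to 91 bases before the start in 7 ligands and 176 bases before it in CXCL10.

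CXCL1, CXCL2 and CXCL3, the growth-regulated chemokines that act through CXCR2, are the near copies with the similar windows above, and they rose by different amounts. CXCL1 had log2 intensities of 12.19 and 12.05 in clone 1, 10.78 and 10.86 in clone 2, 7.13 and 6.91 in shGFP cells, and 7.44 and 6.97 in parental cells. Every ZR-shEI24 array was high, clone 1 above clone 2, and the control lines overlapped. The log2 difference from shGFP was 4.45 (limma, standard error 0.13, adjusted p = 1.3e-08), a 21.9-fold change. CXCL2 had 10.51 and 10.34 in clone 1, 7.82 and 8.32 in clone 2, 6.24 and 6.45 in shGFP cells, and 6.24 and 6.72 in parental cells. Its clones lay farther apart than those of any other of the 10 genes, and both stayed above all controls. Against shGFP it changed by a log2 difference of 2.90 (limma, standard error 0.17, adjusted p = 8.6e-07). CXCL3 had 7.02 and 7.39 in clone 1, 6.44 and 6.39 in clone 2, 5.93 and 5.82 in shGFP cells, and 6.02 and 6.09 in parental cells. The arrays of ZR-shEI24 cells were again the highest, the lowest of them 0.29 above the brightest control array. The log2 difference from shGFP was 0.93 (limma, standard error 0.11, adjusted p = 6.9e-05). For CXCL2 and CXCL3 the shGFP mean lay in the dimmest 25% of genes in that line, where background compresses differences. With each line counted as 1 replicate and both control lines as the control, CXCL2 (2.83, adjusted p = 0.051 from limma) and CXCL3 (0.84, adjusted p = 0.083) no longer passed at nearly the same log2 differences. Cross-hybridization between these near-identical genes, which would share signal among their probes, was not tested.

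CXCL5 and CXCL6, neutrophil chemokines that are also close copies, showed the smallest differences of the 10 genes, and their promoters hold the same κB letters. CXCL5 had log2 intensities of 6.96 and 6.88 in clone 1, 6.69 and 6.90 in clone 2, 6.54 and 6.52 in shGFP cells, and 6.75 and 6.64 in parental cells. The clones lay above shGFP cells and overlapped parental cells. The log2 difference was 0.33 from shGFP (limma, standard error 0.086, adjusted p = 0.0093) and 0.16 from parental cells (adjusted p = 0.14), which did not pass. CXCL6 had 6.37 and 6.68 in clone 1, 6.37 and 6.62 in clone 2, 6.15 and 6.21 in shGFP cells, and 6.35 and 6.36 in parental cells. All ZR-shEI24 arrays were above all controls, by a margin of 0.0053 at the nearest pair. The log2 difference was 0.33 from shGFP (limma, standard error 0.11, adjusted p = 0.030) and 0.15 from parental cells (adjusted p = 0.26). CXCL6 and CXCL3 belong to the 4604 genes whose mean over the arrays is in the lowest 25%, a group with a median log2 difference of 0.13 and a 90th percentile of 0.43, in which 19.4% were called higher. The change of CXCL6 therefore lies between the median and the 90th percentile of these dim genes, and that of CXCL3 above the 90th percentile. Leaving out single arrays ended the call of CXCL6 in 4 cases, without clone 1 replicate 2, clone 2 replicate 2 or either shGFP array, with log2 differences of 0.25 to 0.36, and that of CXCL5 in 2, without either shGFP array, with 0.32 and 0.34.

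CXCL8, the ligand of CXCR1 and CXCR2 first known as interleukin-8, rose in both clones, which did not differ from each other by the test. Its log2 intensity was 11.05 and 11.33 in clone 1, 11.08 and 11.10 in clone 2, 6.59 and 6.94 in shGFP cells, and 6.24 and 6.47 in parental cells. The arrays of the clones overlapped, and the lowest of them was 4.11 above the brightest control array. The log2 difference from shGFP was 4.38 (limma, standard error 0.13, adjusted p = 1.1e-08), a 20.8-fold change, and from parental cells it was 4.79. Between shGFP and parental cells CXCL8 differed by 0.41 (adjusted p = 0.12 from limma), a value that passed with the replicate number as a term (adjusted p = 0.021) and with a variance model that follows intensity (adjusted p = 0.041). Of all genes, those whose 4 line means relative to shGFP lay nearest to the profile of CXCL8 were CXCL11, TM4SF1, a surface protein of the tetraspanin-like L6 family, IGFBP7, CCN1, a secreted matrix protein, and ZEB1, a repressor of epithelial genes, at distances of 0.28 to 0.38 on the log2 scale over 4 lines. CCN1, for instance, had 12.69 and 12.59 in clone 1, 12.98 and 12.89 in clone 2, 8.21 and 8.36 in shGFP cells, and 8.19 and 7.91 in parental cells.

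CXCL10 and CXCL11, the interferon-inducible ligands of CXCR3, rose strongly in both clones from low levels in the controls. CXCL10 had log2 intensities of 10.08 and 9.58 in clone 1, 8.42 and 8.26 in clone 2, 4.67 and 4.48 in shGFP cells, and 4.83 and 4.84 in parental cells. Clone 1 was the highest line and the 2 control lines were both in their dimmest 25% of genes. The log2 difference from shGFP was 4.51 (limma, standard error 0.14, adjusted p = 1.4e-08), which is 22.8-fold and a lower bound. CXCL11 had 9.61 and 9.45 in clone 1, 9.22 and 9.09 in clone 2, 4.92 and 4.97 in shGFP cells, and 4.93 and 4.53 in parental cells. The clones lay close together, far above overlapping controls that were again dim. Against shGFP the log2 difference was 4.40 (limma, standard error 0.12, adjusted p = 7.2e-09), a lower bound of 21.1-fold. CXCL9, the third ligand of CXCR3 and their neighbor on chromosome 4, was at 4.46 and 4.56 in clone 1, 4.33 and 4.58 in clone 2, 4.37 and 4.26 in shGFP cells, and 4.21 and 4.45 in parental cells. These arrays overlapped, and the log2 difference of 0.17 did not pass (adjusted p = 0.20 from limma). Its promoter held a loose κB and an interferon response match and not the 9 exact letters.

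CXCL16, the membrane-anchored ligand of CXCR6, fell in both clones. Its log2 intensity was 7.02 and 6.64 in clone 1, 7.64 and 7.66 in clone 2, 8.59 and 8.48 in shGFP cells, and 9.07 and 9.10 in parental cells. The 4 lines formed 4 separate levels, lowest in clone 1 and highest in parental cells. The log2 difference was -1.30 from shGFP (limma, standard error 0.11, adjusted p = 8.1e-06), or 2.45-fold lower, and -1.85 from parental cells. In shGFP cells CXCL16 was also lower than in parental cells, with a difference of -0.55 (limma, standard error 0.12, adjusted p = 0.026), the call among the 10 genes between the control lines, and it was lost without any 1 of the 4 control arrays (log2 differences of -0.61 to -0.49).

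CXCR4, the receptor, rose in both clones and was higher in clone 2. Its log2 intensity was 7.95 and 7.61 in clone 1, 8.75 and 8.34 in clone 2, 6.59 and 6.23 in shGFP cells, and 6.79 and 6.49 in parental cells. The clones did not overlap the controls, and the control lines overlapped each other. Set against shGFP, CXCR4 had a log2 difference of 1.76 (limma, standard error 0.16, adjusted p = 1.7e-05), or 3.38-fold, with the shGFP mean again in the dimmest 25%. The profiles over the 4 lines nearest to CXCR4 were those of TEC, a non-receptor tyrosine kinase, LPCAT4, RUSC2, IRF1, a transcription factor of the interferon response, and PAQR5, at distances of 0.06 to 0.19. TEC had 8.78 and 8.55 in clone 1, 9.59 and 9.42 in clone 2, 7.35 and 7.36 in shGFP cells, and 7.82 and 7.38 in parental cells. Its likeness to CXCR4 in the order of lines follows from how it was chosen.

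Each clone was also set against shGFP on its own. Both comparisons use the same shGFP arrays, and their values are therefore given side by side. In clone 1, 9 of the 10 genes were higher and 1 lower, with 23.0% and 26.6% of all genes called in these directions. CXCL6 was near the threshold in clone 1 (log2 difference 0.34, adjusted p = 0.048 from limma). With a variance model that follows intensity, 8 were called higher in clone 1. In clone 2, 8 were higher and 1 lower, with 25.2% and 27.8% of all genes called, and CXCL6 was the one not called (log2 difference 0.31, adjusted p = 0.064 from limma). With only the arrays of clone 2, shGFP and parental cells in the fit, 9 were called higher in clone 2. A separate fit of all arrays with the replicate number as a term also gave 9. With a variance model that follows intensity 7 were called, and 7 in another fit with each array centred on its median. CXCL5 was near the threshold in clone 2 (log2 difference 0.27, adjusted p = 0.047 from limma). The difference of clone 2 from clone 1 in CXCL6 did not pass. The log2 differences in clone 1 and clone 2 were 5.10 and 3.80 for CXCL1, 4.08 and 1.72 for CXCL2, and 5.26 and 3.77 for CXCL10. They were 4.43 and 4.33 for CXCL8, 4.59 and 4.21 for CXCL11, and 1.37 and 2.14 for CXCR4.

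Clone 1 differed from clone 2 in 6 of the 10 genes. CXCL1, CXCL2, CXCL3 and CXCL10 were higher and CXCL16 and CXCR4 lower, so 4 of 10 and 2 of 10 stood beside 9.29% and 5.88% of all genes. CXCL2 differed by 2.36 on the log2 scale (limma, standard error 0.20, adjusted p = 0.00018), CXCL10 by 1.49 (0.16, adjusted p = 0.00058), CXCL1 by 1.30 (0.15, adjusted p = 0.0010) and CXCL3 by 0.79 (0.12, adjusted p = 0.0038). CXCL16 differed by -0.82 (limma, standard error 0.12, adjusted p = 0.0031) and CXCR4 by -0.77 (0.19, adjusted p = 0.027). The call of CXCR4 was lost without clone 1 replicate 2 (-0.59, adjusted p = 0.12 from limma) or clone 2 replicate 1 (-0.56, adjusted p = 0.14). For CXCL8 the difference was 0.10 with a 95% interval of -0.23 to 0.43, for CXCL11 0.37 (0.07 to 0.68, adjusted p = 0.11 from limma), for CXCL5 0.13 (-0.10 to 0.35) and for CXCL6 0.03 (-0.25 to 0.32), none of which passed. EI24 itself had less signal in clone 1, with a difference from clone 2 of -0.68 (adjusted p of 0.0023 in limma).

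**Figure D3:**
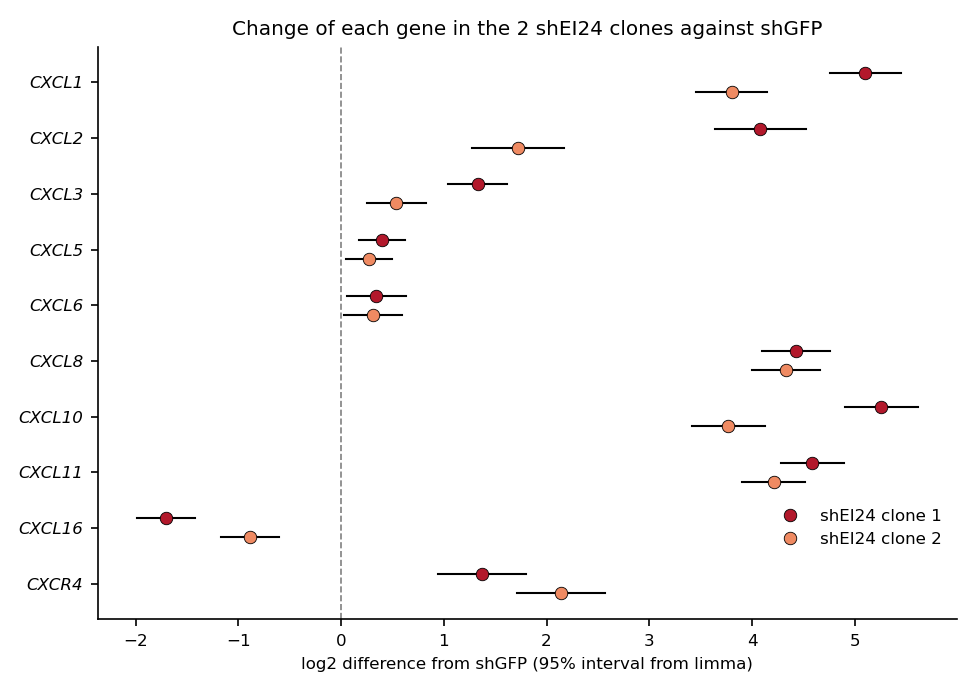
Log2 difference from shGFP cells (x axis) for each of the 10 genes (rows) in shEI24 clone 1 and shEI24 clone 2. Points are limma estimates from 2 arrays of each line and lines their 95% intervals. Intervals of the clones lie apart for CXCL1, CXCL2, CXCL3, CXCL10 and CXCL16 and overlap for CXCL5, CXCL6, CXCL8, CXCL11 and CXCR4.

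The control lines were set against each other as well. In shGFP against parental cells 0 of the 10 genes were higher and 1, CXCL16, was lower by limma, with 3.21% and 7.44% of all genes called. At an unadjusted p under 0.05, 1 was higher (CXCL8) and 1 lower. When limma also fitted the replicate number, CXCL8 (adjusted p = 0.021), CXCL16 (adjusted p = 0.014) and CXCR4 (-0.24 on the log2 scale, adjusted p = 0.049) passed. Against parental cells in place of shGFP, ZR-shEI24 cells had 7 of the genes higher and 1 lower, with 25.1% and 30.8% of all genes called, and the 2 not called were CXCL5 and CXCL6.

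The rest of the CXC family moved little, apart from CXCL12. Among 8 other CXC ligands, 1 rose, 1 fell and 6 did not pass, with a median log2 difference of 0.15. For the counts of ligands and receptors here, the shares over all genes were 26.8% higher and 29.0% lower. CXCL12, the ligand of CXCR4, was at 6.17 and 6.57 in clone 1, 6.25 and 6.47 in clone 2, 9.94 and 9.92 in shGFP cells, and 10.79 and 10.77 in parental cells. Both clones were low and overlapped, and the difference of shGFP from parental cells was -0.84 (adjusted p of 0.0065 in limma). The log2 difference of ZR-shEI24 from shGFP cells was -3.57 (limma, standard error 0.12, adjusted p = 2.4e-08), opposite in sign to that of its receptor. Both clones lay in the dimmest 25% of genes in their lines, so the size is a bound. The ligand that rose was PF4, a platelet chemokine, by 0.34, and PF4V1, PPBP, CXCL9, CXCL13, CXCL14 and CXCL17 had log2 differences between -0.04 and 0.35 that did not pass. PF4 belongs to the genes whose mean over the arrays is in the lowest 25%. In that group 19.4% were called higher, and the 90th percentile of the log2 difference was 0.43. Among the receptors of the ligands that rose, CXCR1 had a log2 difference of 0.15, CXCR2 of 0.23 and CXCR3 of 0.25, and none passed. CXCR6, the receptor of CXCL16, had 0.11, CXCR5 0.19 and the scavenger ACKR1 -0.05, which did not pass either. Of 7 other receptors, 1 fell, the atypical receptor ACKR3, which binds CXCL11 and CXCL12, by a log2 difference of -0.46 (adjusted p = 0.0065 from limma). ACKR3 was also lower in shGFP than in parental cells, by -0.63, and dim in both clones. Among the genes named in the lists below, RGS2, TNFAIP3, IL1A, IL1B, TLR4, IL1R1 and MMP1 were dim in shGFP cells, so that background limits the size of their differences too.

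Genes that carry the signal of these receptors moved in both directions. The 32 measured ones comprised 16 that rose, 9 that fell and 7 that did not pass, with a median log2 difference of 0.21. Over all genes 26.8% were called higher and 29.0% lower, and the part of the list that fell lies near that share. PREX1, an exchange factor that activates Rac downstream of G protein βγ subunits, had 6.87 and 7.0 in clone 1, 6.61 and 7.02 in clone 2, 11.16 and 11.05 in shGFP cells, and 10.36 and 10.22 in parental cells. It was low in both clones, with a log2 difference of -4.23 from shGFP (adjusted p = 9.9e-09 from limma). RAC2, a Rac GTPase best known in blood cells, was high in both clones, with 11.31 and 11.23 in clone 1, 11.57 and 11.48 in clone 2, 7.85 and 7.73 in shGFP cells, and 7.30 and 7.46 in parental cells, a log2 difference of 3.61 (adjusted p = 3.6e-09 from limma). GRK5, a kinase that desensitizes receptors, rose by 2.98, whereas its relative GRK3 fell, with a log2 difference of -1.77. RGS2, which speeds the turn-off of G proteins, rose by 2.38, and USP8, a deubiquitinase of endosomes, fell with -2.33.

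Of 22 genes of NF-κB, AP-1 and C/EBP factors and their inhibitors, 17 rose, 3 fell and 2 did not pass. Their median log2 difference was 0.76, and 26.8% of all genes were called higher and 29.0% lower. TNFAIP3, whose product A20 restrains NF-κB and is itself induced by it, had 11.14 and 11.03 in clone 1, 11.79 and 11.85 in clone 2, 6.25 and 6.44 in shGFP cells, and 6.52 and 6.74 in parental cells. NFKBIZ, a nuclear IκB protein that assists the transcription of a subset of NF-κB targets, rose by 3.25 against shGFP and was itself lower in shGFP than in parental cells, by -1.46 (limma, adjusted p = 0.00022). EGR1 rose by 2.86 and the AP-1 subunit FOSL1 by 2.47, while FOS (-0.93) and REL (-0.70), an NF-κB subunit, fell. In this list 1 gene was higher and 11 were lower in clone 1 than in clone 2, beside 9.29% and 5.88% of all genes. A link of these differences to those of the ligands was not tested. EGR1 was the widest apart, at 9.97 and 9.84 in clone 1 and 12.28 and 12.15 in clone 2.

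Among 15 genes of the interferon axis, 10 rose, 1 fell and 4 did not pass, with a median log2 difference of 0.55. Beside them stand 26.8% of all genes called higher and 29.0% called lower. IRF1 had 8.05 and 7.93 in clone 1, 8.76 and 8.80 in clone 2, 6.79 and 6.58 in shGFP cells, and 6.94 and 6.59 in parental cells, a log2 difference of 1.70 (adjusted p = 1.9e-06 from limma). IFNGR2, a subunit of the interferon gamma receptor, rose by 1.30 and IRF9 by 1.17. The kinase JAK2 fell, with -1.29. In the test between the clones 0 of the 15 were higher and 6 lower in clone 1 by limma, beside 9.29% and 5.88% of all genes. The counts were the same at an unadjusted p under 0.05.

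Cytokines and receptors that induce CXC ligands were higher in ZR-shEI24 cells in 13 of 18 cases, lower in 2 and not called in 3. Their median log2 difference was 0.51, with 26.8% of all genes called higher and 29.0% lower. IL1A, an interleukin-1 gene, had 11.74 and 11.57 in clone 1, 10.21 and 10.28 in clone 2, 5.19 and 5.24 in shGFP cells, and 5.49 and 5.46 in parental cells. IL1B had 12.10 and 11.91 in clone 1, 7.34 and 7.44 in clone 2, 5.96 and 5.94 in shGFP cells, and 5.74 and 6.06 in parental cells. Both were higher in clone 1, IL1B by 4.62 on the log2 scale (adjusted p = 4.7e-07 from limma). Their part in the clone differences of the ligands was not tested. TLR4 rose by 3.55 and IL1R1, the interleukin-1 receptor, by 3.07, while the signaling kinase IRAK1 (-0.56) and IL17RA (-0.28) fell. Against clone 2, clone 1 had 5 genes of this list higher and 1 lower, beside 9.29% and 5.88% of all genes.

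Of 13 genes whose products cut or modify chemokines, 8 rose, 1 fell and 4 did not pass, with a median log2 difference of 0.53. For this list and the next, the shares over all genes were 26.8% higher and 29.0% lower. The metalloproteases MMP1, MMP14 and MMP9 rose by 8.06, 4.37 and 1.90. MMP9, which trims several CXC ligands, had 10.16 and 9.77 in clone 1, 7.70 and 7.78 in clone 2, 6.98 and 6.93 in shGFP cells, and 7.07 and 7.05 in parental cells, with clone 1 again above clone 2. PADI2, a peptidylarginine deiminase, fell with -1.79. Of 8 genes that set the decay of chemokine mRNA, 5 rose, 1 fell and 2 did not pass, with a median of 0.54. ZFP36L1 and ZFP36, which bind AU-rich elements and speed decay, rose by 1.43 and 1.30, and the ribonuclease gene ZC3H12A by 1.14. TRAF3IP2, an adaptor of the interleukin-17 receptor, fell with -0.45.

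The genes next to the ligands and CXCR4 on their chromosomes are given beside all genes, of which 26.8% were called higher and 29.0% lower, and nothing particular to the neighbors is read from their counts. CXCL8, CXCL6, CXCL1, CXCL5, CXCL3 and CXCL2 form 1 block, in which PF4V1, PF4 and PPBP lie between them. Of the 13 measured genes inside this block or next to it that are not among the 10, 5 rose, 0 fell by limma and 8 did not pass, with a median log2 difference of 0.14. EREG, an EGF receptor ligand, had 8.81 and 8.31 in clone 1, 7.82 and 7.74 in clone 2, 6.54 and 6.68 in shGFP cells, and 6.36 and 6.54 in parental cells, a log2 difference of 1.56. PARM1 rose by 2.02, and ANKRD17, RASSF6 and PF4 by 0.23 to 0.34, of which RASSF6 and PF4 are dim in all lines. Against parental cells ANKRD17 differed by 0.05, which did not pass (adjusted p = 0.59 from limma). None of the 13 was lower at an unadjusted p under 0.05. The block of CXCL10 and CXCL11 had 10 such neighbors. By limma 0 of them rose (2 at an unadjusted p under 0.05), 5 fell and 5 did not pass. Their median was -0.25, with NAAA (-0.60) and SCARB2 (-0.56) the lowest. SCARB2 was 0.55 higher in shGFP than in parental cells (adjusted p = 0.0081 from limma). From parental cells, ZR-shEI24 cells differed in SCARB2 by -0.0076. Next to CXCL16 on chromosome 17, 1 of 10 neighbors rose, 3 fell and 6 did not pass. The neighbor that rose was PSMB6, with 0.34 against shGFP and -0.04 against parental cells. CXCL16 had the lowest log2 difference of its block, before ALOX15 (-0.90) and GGT6 (-0.86). Around CXCR4 on chromosome 2, 3 of 10 rose, 5 fell and 2 did not pass. There HNMT rose by 1.64, THSD7B by 0.33 and LRP1B by 0.27, and ZRANB3 (-2.89), SPOPL (-1.66) and MCM6 (-1.40) fell. HNMT, THSD7B and LRP1B were dim in shGFP cells, as CXCR4 was, so background limits the size of their differences.

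**Figure D4:**
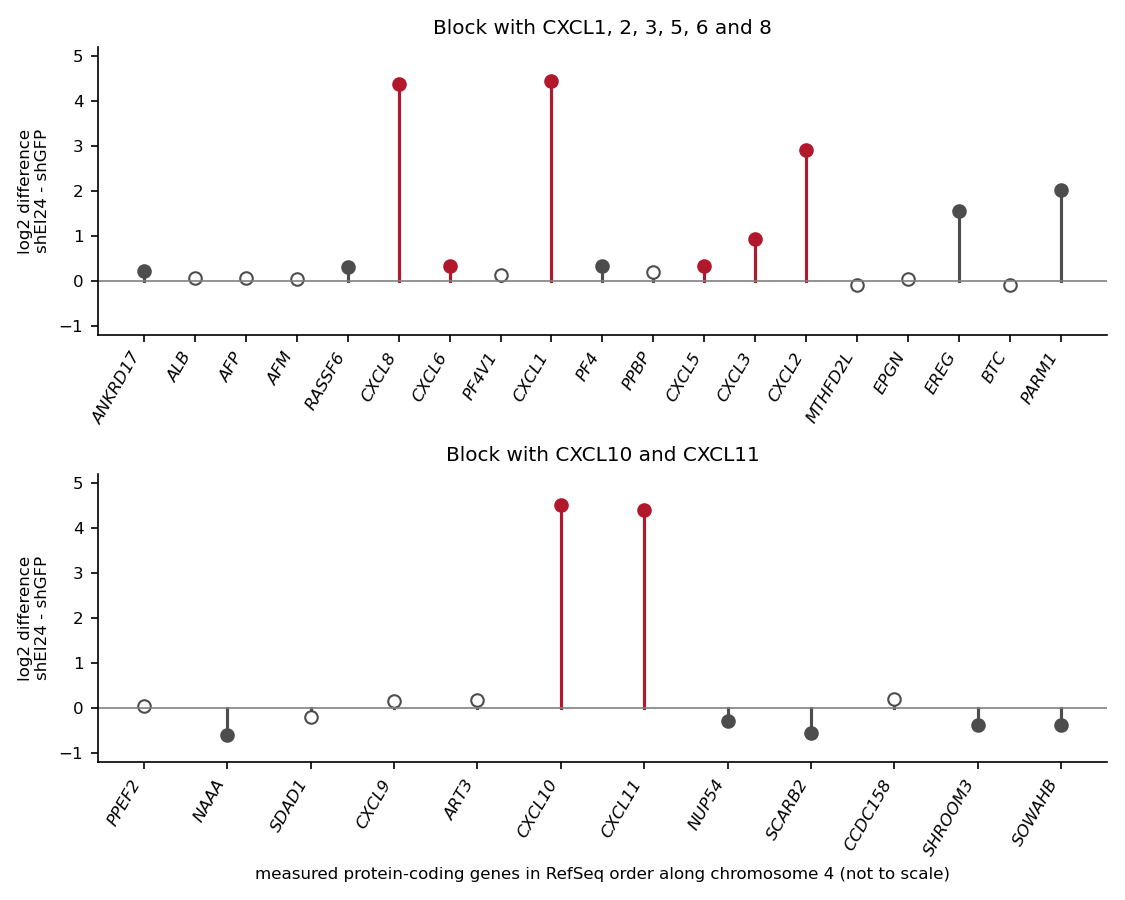
Log2 difference of ZR-shEI24 from shGFP cells (y axis) for measured protein-coding genes in their order along chromosome 4 (x axis, not to scale), for the block with CXCL1, CXCL2, CXCL3, CXCL5, CXCL6 and CXCL8 (top) and that with CXCL10 and CXCL11 (bottom). Red marks the CXC ligands followed here, grey the other genes, and filled dots an adjusted p under 0.05 from limma. CXCL8 and CXCL1 rose by 4.38 and 4.45 while PF4V1 between them had 0.14.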

How the data were processed

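Total RNA of 2 shEI24 clones, shGFP cells and parental ZR-75-1 cells was hybridized to 2 arrays per line. The deposited table gives a log2 intensity for each transcript cluster on each array, which the authors made with GCOS and RMA according to the submitters' processing notes, with versions not given in the sources used here. The array is the human exon 1.0 st array by the methods, while its 33297 clusters match the annotation of Human Gene 1.0 ST. Of these clusters 19460 carry 1 gene symbol. Those with several symbols (1754) or without any (12083) were not used, and 1043 dimmer clusters of a gene were set aside, which gave 18417 genes. The files used hold no detection calls, so a line mean in the lowest 25% of genes was taken as dim. RMA fixes the distribution of each array, which hides changes in the RNA content of a cell. The number of arrays limits the precision.

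A mean per line was fitted to all arrays with limma 3.58.1 in R 4.3.3 (4 residual degrees of freedom), with Benjamini-Hochberg adjustment over all genes and a threshold of 0.05. Fold changes are 2 to the power of the absolute difference of log2 values. The procedure was tested on simulated data whose spread came from the moderated variances of limma, after a first simulation with the raw variances recovered fewer of the changed genes than had been required. The 10 genes and all gene lists were chosen with earlier results of these data known. Named are the 10 genes and EI24, all measured CXC ligands and receptors, up to 4 called genes of each list with the largest change, up to 2 that moved the other way, the 5 nearest profiles of CXCL8 and of CXCR4 (Euclidean distance of line means relative to shGFP), and genes next to the 10, up to 5 on each side in RefSeq order. In the marker lists, genes are named by the same rule or as list members. Alternatives were parental or pooled controls, each line as 1 replicate, the replicate number as a term, eBayes with trend and robust, median centring, a second quantile normalization, leaving out dim genes, all clusters, the unpaired t-test that the methods use, gene by gene, and omission of each array in turn. The values for dim genes, the overlap with all controls and fits with the arrays of 1 clone and both control lines were chosen after seeing the data. Motifs were searched in RefSeq promoters of GRCh38.p14. Some genes of the lists and protein sequences are not analysed here.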

Additional observations from a re-analysis of the deposited data

Results flagged for a closer look

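Both shEI24 clones differed from each other, as tested by limma for clone 1 minus clone 2, in 30 of the genes named. Over all genes 9.29% were called higher and 5.88% lower in clone 1. The genes named were partly chosen by their values, so nothing is read from their count. Knockdown and clone cannot be told apart in this comparison. Log2 differences are given, and each passed an adjusted p of 0.05. EI24 itself differed by -0.68. Among the chemokine genes, CXCL1 (1.30), CXCL2 (2.36), CXCL3 (0.79) and CXCL10 (1.49) were higher in clone 1, and CXCL16 (-0.82) and CXCR4 (-0.77) lower. Of the cytokines and proteases, IL1B (4.62), MMP9 (2.23), TLR4 (1.52), IL1A (1.41) and MMP14 (0.55) were higher in clone 1. Of the transcription factors and their regulators, EGR1 (-2.31), FOSL1 (-1.23), TNFAIP3 (-0.73) and REL (-0.43) were lower in clone 1. The interferon genes IRF1 (-0.80), IFNGR2 (-0.75) and IRF9 (-0.58) were lower as well. Genes of mRNA decay went both ways, with ZFP36 (-1.2), TRAF3IP2 (-0.70) and ZFP36L1 (-0.29) lower and ZC3H12A (0.55) higher in clone 1. The receptor kinase gene GRK3 was higher (0.55). The genes with profiles like that of CXCR4 shared its sign, with TEC at -0.84, RUSC2 at -0.71, LPCAT4 at -0.70 and PAQR5 at -0.54. That sign follows from how they were chosen. Of the genes next to the chemokines, EREG differed by 0.78 and SHROOM3 by -0.93.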

How the results depend on the processing

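Alternatives were run for the 10 genes, EI24 and the counts, not for each other gene named, and no called value among these turned its direction. In all 19 alternatives, of which 3 used parental or pooled controls, CXCL1, CXCL8, CXCL10, CXCL11, CXCR4 and EI24 kept their calls. With each line as 1 replicate, 5 of the 10 genes were higher, 2743 of all genes were higher and 3423 lower, and of the lists 38 genes were higher and 12 lower. With the methods' t-test and Benjamini-Hochberg adjustment, 5 of the 10 were higher and 0 lower (CXCL16 at adjusted p = 0.064 in this t-test across all genes, with -1.30 on the log2 scale), against 3203 of all genes higher and 12 list genes lower. The variance model with trend gave 1 gene higher in shGFP than in parental cells, CXCL8. With the replicate number as a block in the fit, 1 was higher there (CXCL8) and 2 lower (CXCL16 and CXCR4), CXCL11 passed between the clones, and 6307 of all genes were higher and 5743 lower in ZR-shEI24 than in shGFP cells. Same-numbered arrays of different lines deviated together (r of 0.25 to 0.59), but only 2 numbers exist and no label gives them a meaning. Leaving out 1 array in turn, 7 to 9 of the 10 were higher than in shGFP, 1 to 2 were lower in clone 1 than in clone 2, and 0 to 1 lower in shGFP than in parental cells. The causes of these shifts were not tested.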
